A study of Arabidopsis thaliana with 6 samples.

Results

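The 10 genes described here encode the enzymes of the plant's main route of auxin synthesis: the aminotransferases TAA1 (AT1G70560), TAR1 (AT1G23320) and TAR2 (AT4G24670), and the flavin monooxygenases YUC1 (AT4G32540), YUC2 (AT4G13260), YUC4 (AT5G11320), YUC6 (AT5G25620), YUC8 (AT4G28720), YUC10 (AT1G48910) and YUC11 (AT1G21430). They were chosen by locus identifier, and all 10 are among the 33323 loci of the deposited table. RNA was sequenced from whole seeds of Arabidopsis thaliana, dissected out of the silique 6 days after pollination. The DD25::IaaH group held 3 libraries from self-pollinated Col-0 plants that carry the transgene DD25::IaaH, and the WT group held 3 libraries from self-pollinated wild type Col-0 plants without it. IaaH, under the DD25 promoter, is a bacterial hydrolase that releases auxin from indole-acetamide. The labels do not say in which cells that promoter is active, how many transgenic lines were used or whether each library came from separate plants, so p-values here measure the spread between libraries alone. IaaH has no Arabidopsis locus, so the table gives no check of the transgene.

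In plants, most auxin is thought to be made from tryptophan in a short chain. The TAA aminotransferases remove the amino group of tryptophan and give indole-pyruvate, and the YUCCA monooxygenases turn that into auxin, a step regarded as rate-limiting. IaaH makes auxin by another route and needs neither family. In the young seed, auxin made in the endosperm, the tissue that feeds the embryo, is needed for endosperm nuclei to divide and is linked to the timing of wall formation there. YUC10 and TAR1 are known as genes of the endosperm that are expressed mainly from the father's copy, while TAA1, YUC1 and YUC4 also serve the embryo.

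In DD25::IaaH seeds, 2 of the 10 genes rose, 1 in each family: TAR1 and YUC10. The other 5 genes that could be tested, TAA1, TAR2, YUC1, YUC4 and YUC6, did not pass, and YUC2, YUC8 and YUC11 were too low to test. RPKM is a read count scaled by gene length and library depth. The test was limma on log2(RPKM + 0.5) for every gene that averaged 0.5 RPKM or more, with p-values adjusted by Benjamini and Hochberg's method over all 20880 tested genes and called under 0.05. Against these 2 members higher and 0 lower, the rates among all tested genes were 8.25% higher and 6.72% lower. The 7 tested members had a median log2 fold change, DD25::IaaH minus WT, of 0.14, against 0.03 over all tested genes. Depth was 6495018 to 10750969 reads in DD25::IaaH and 8948982 to 17785020 reads in WT. RNA came from whole seeds, so fewer cells of a type and less RNA per cell cannot be told apart.

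TAR1 and YUC10, the genes that rose, are shown here by the 300 bases around their annotated starts, from 250 bases before to 50 after, read 5′ to 3′ on the gene's own strand from RefSeq's TAIR10.1. RefSeq annotates no transcribed bases before the start codon for either, so the annotated start of both is the A of ATG. Capitals mark TATAAA, the core of the TATA box, and CANNTG, the E-box that basic helix-loop-helix factors can bind.
TAR1, chr1:8275301-8275600, minus strand: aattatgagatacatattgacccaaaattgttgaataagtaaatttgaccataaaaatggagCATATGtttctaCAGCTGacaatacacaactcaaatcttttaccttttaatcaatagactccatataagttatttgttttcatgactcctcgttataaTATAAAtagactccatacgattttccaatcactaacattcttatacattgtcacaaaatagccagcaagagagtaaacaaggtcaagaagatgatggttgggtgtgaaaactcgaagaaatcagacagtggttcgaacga
YUC10, chr1:18091431-18091730, plus strand: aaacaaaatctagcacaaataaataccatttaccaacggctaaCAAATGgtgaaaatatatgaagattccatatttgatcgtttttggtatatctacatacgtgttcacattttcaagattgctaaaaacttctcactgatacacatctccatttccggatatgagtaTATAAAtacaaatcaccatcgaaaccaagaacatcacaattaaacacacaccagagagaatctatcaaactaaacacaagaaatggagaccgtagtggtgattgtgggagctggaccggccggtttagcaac

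Both windows hold 1 TATAAA, whose first base lies 90 bases before the start codon in TAR1 and 82 before it in YUC10. That motif was added after these sequences were seen, and 52.1% of 27443 protein-coding windows cut at the annotated start hold it on 1 strand or the other. In TAR2, for example, that start lies 637 bases before the first coding base. The rates over all windows thus need not describe the same stretch as in TAR1 and YUC10. TAR1 has 2 CANNTG matches and YUC10 has 1, against 61.7% of all windows with at least 1. The auxin response element TGTCTC, present in 14.2% of all windows, was in neither, and among the 10 genes it was found in TAR2 and YUC2. TGTCGG, in 5.12% of all windows, and the RY motif CATGCA, in 9.72%, were in none of the 10. The CArG-box, which MADS-box factors bind, was in 3.05% of all windows and, among the 10, in YUC2. All motifs were searched on both strands, and a match is a string of letters, not a shown binding site.

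TAA1, the main aminotransferase of the route, had the highest level of the 10 genes in both genotypes. It stood at 11.2, 8.80 and 10.13 RPKM in DD25::IaaH 1 to 3, against 8.08, 10.7 and 8.56 RPKM in WT 1 to 3. The groups overlapped, and the log2 fold change was 0.14 ± 0.17 (SE) with a limma adjusted p of 0.652. Its 95% interval, -0.24 to 0.51, bounds the change of TAA1 between 0.845-fold and 1.43-fold on the log2(RPKM + 0.5) scale.

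TAR1, the close relative of TAA1, had 4.78, 3.69 and 3.11 RPKM in DD25::IaaH 1 to 3, against 0.193, 0.287 and 0.803 RPKM in WT 1 to 3. Every DD25::IaaH library lay above every WT library, and WT 3 was the highest of the WT libraries. In whole reads, rebuilt from the steps of the RPKM values, these were 60, 28 and 33 reads in DD25::IaaH, against 4, 3 and 9 reads in WT. The mean was 3.86 ± 0.850 RPKM in DD25::IaaH and 0.428 ± 0.328 RPKM in WT (SD, n = 3 each), a ratio of 9.03. Over each group's depth the ratio of reads was 10.4, with an exact 95% counting interval of 6.17 to 18.8 that does not cover the spread between libraries. The log2 fold change was 2.27 ± 0.32 (SE), with a 95% interval of 1.54 to 3.0 and a limma adjusted p of 0.00166. The added 0.5 shrinks the change of a gene this low, and the fitted value equals 4.83-fold.

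TAR2, the third aminotransferase, was at a similar level in every library. It had 5.85, 6.06 and 5.94 RPKM in DD25::IaaH 1 to 3, against 4.76, 7.03 and 5.75 RPKM in WT 1 to 3. The DD25::IaaH values lay within the WT range, with a log2 fold change of 0.04 ± 0.18 (SE), a 95% interval of -0.37 to 0.45 and a limma adjusted p of 0.917.

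**Figure D1:**
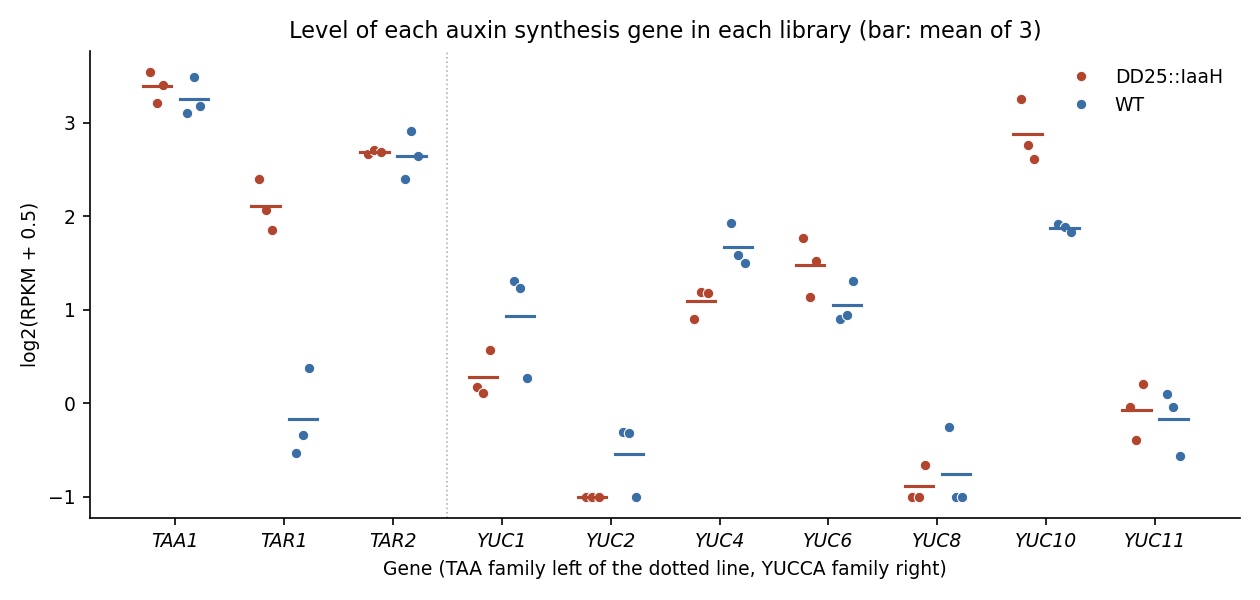
Level of each of the 10 genes in each library as log2(RPKM + 0.5), with DD25::IaaH points and WT points side by side and a bar at the mean of 3 libraries. TAR1 and YUC10 have all DD25::IaaH points above all WT points, YUC4 has them all below, and the others overlap.

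Within the TAA family, the summed level of the 3 genes was 18.6 to 21.8 RPKM in DD25::IaaH and 13.03 to 18.0 RPKM in WT. TAR1 supplied 19.3% ± 2.91 of that sum in DD25::IaaH and 2.80% ± 2.18 in WT (SD, n = 3 each). The share of TAA1 was 50.5% ± 2.77 in DD25::IaaH and 59.3% ± 2.69 in WT, and that of TAR2 was 30.2% ± 3.0 in DD25::IaaH and 37.9% ± 1.25 in WT (SD, n = 3 each). Shares of 1 sum are tied to each other, so the lower shares of TAA1 and TAR2 do not show that either fell.

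The change of TAR1 was also set against those of its relatives within each library. A difference in log2 ratio is the log2 fold change of 1 gene minus that of the other. TAR1 was already called, so these ratios are no separate support for its rise. The log2 ratio of TAR1 to TAR2 was -0.58 ± 0.29 in DD25::IaaH and -2.82 ± 0.51 in WT (SD, n = 3 each), a difference of 2.23. That of TAR1 to TAA1 was -1.28 ± 0.24 in DD25::IaaH and -3.42 ± 0.55 in WT (SD, n = 3 each), a difference of 2.14. Every DD25::IaaH library lay above every WT library in both ratios. Two-sided exact permutation tests gave p = 0.10 for each, also after adjustment over the 4 ratios tested in the 2 families. With 3 libraries against 3, 0.10 is the smallest p this test can give, so it cannot pass 0.05.

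YUC10 was the YUCCA gene with the highest level in both genotypes. It had 9.04, 6.28 and 5.63 RPKM in DD25::IaaH 1 to 3, against 3.27, 3.20 and 3.07 RPKM in WT 1 to 3. The WT libraries lay close together, and DD25::IaaH 1 was well above the other two of its group. The mean was 6.98 ± 1.81 RPKM in DD25::IaaH and 3.18 ± 0.101 RPKM in WT (SD, n = 3 each), a ratio of 2.20. The log2 fold change was 1.00 ± 0.21 (SE), with a 95% interval of 0.52 to 1.47 and a limma adjusted p of 0.0129. The call depended on DD25::IaaH 1: without it the log2 fold change was 0.81 and the adjusted p 0.0543. It was not kept without WT 1 and WT 2 either, a fit with a single WT library and a log2 fold change of 1.04.

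YUC4, which acts in the embryo and in flower organs, had 1.37, 1.78 and 1.76 RPKM in DD25::IaaH 1 to 3, against 3.32, 2.51 and 2.34 RPKM in WT 1 to 3. All DD25::IaaH libraries lay below all WT libraries, but the log2 fold change of -0.59 ± 0.24 (SE) did not pass, with a limma adjusted p of 0.141. Of the 7 tested members, 3 had groups that did not overlap, 2 higher and 1 lower. Over all tested genes this held for 33.3%, 18.4% higher and 14.9% lower, so separate groups alone do not mark YUC4 out.

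YUC1, a partner of YUC4 in embryo and flower development, had 0.627, 0.577 and 0.988 RPKM in DD25::IaaH 1 to 3, against 1.98, 1.84 and 0.702 RPKM in WT 1 to 3. WT 3 lay inside the DD25::IaaH range and far below WT 1 and WT 2. The log2 fold change was -0.65 ± 0.36 (SE), with a limma adjusted p of 0.279. Without WT 1 and WT 2 it was 0.019, so any difference in YUC1 rested on those libraries.

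YUC6 had 2.91, 1.70 and 2.37 RPKM in DD25::IaaH 1 to 3, against 1.36, 1.43 and 1.97 RPKM in WT 1 to 3. The groups overlapped through DD25::IaaH 2 and WT 3, and the log2 fold change of 0.43 ± 0.27 (SE) had a limma adjusted p of 0.334. Its 95% interval of -0.18 to 1.03 leaves room for a change as large as that of YUC10.

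**Figure D2:**
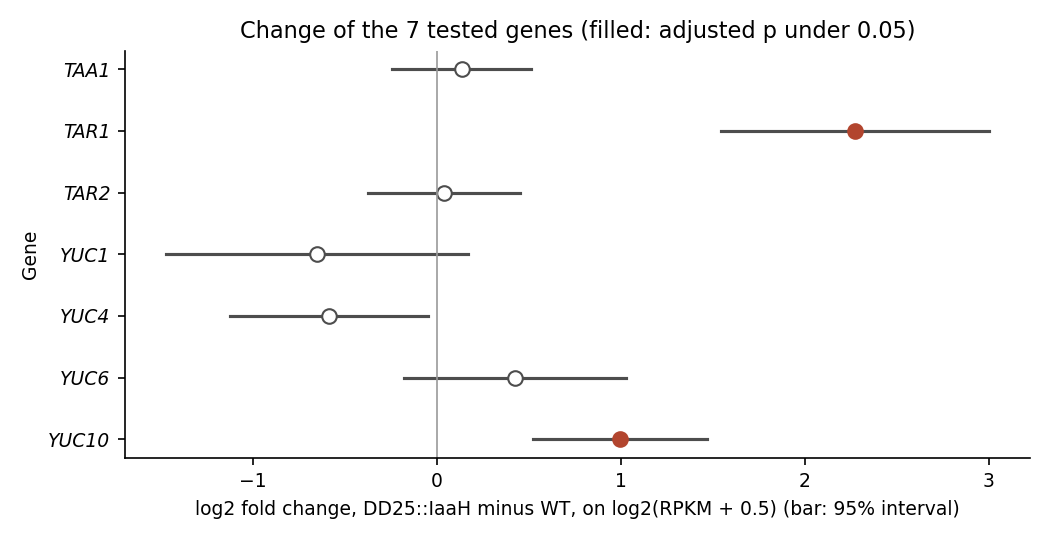
Log2 fold change, DD25::IaaH minus WT, of the 7 tested genes with 95% intervals from limma; filled points have an adjusted p under 0.05. The intervals of TAR1 (1.54 to 3.0) and YUC10 (0.52 to 1.47) lie above 0, that of YUC4 lies just below it without passing the adjusted test, and the other 4 include 0.

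The YUCCA members summed to 10.6 to 14.4 RPKM in DD25::IaaH and 8.26 to 11.1 RPKM in WT, ranges that overlap. This sum leaves out YUC3, YUC5, YUC7 and YUC9, which together had 0.742 to 1.52 RPKM in DD25::IaaH and 1.80 to 2.37 RPKM in WT. YUC10 supplied 56.9% ± 7.24 of the sum in DD25::IaaH and 33.1% ± 3.93 in WT (SD, n = 3 each). YUC4 supplied 13.8% ± 3.83 in DD25::IaaH and 27.9% ± 2.05 in WT (SD, n = 3 each). YUC10 was thus the largest item of the family in every library except WT 1, where it held 29.3% and YUC4 29.8%. The log2 ratio of YUC10 to YUC11, its closest relative among the members by coding sequence, was 2.95 ± 0.48 in DD25::IaaH and 2.05 ± 0.31 in WT (SD, n = 3 each). That of YUC10 to YUC2 was 3.88 ± 0.33 in DD25::IaaH and 2.42 ± 0.36 in WT (SD, n = 3 each), and the exact permutation p was 0.10 for both ratios, the smallest possible. For YUC10 to YUC11 the groups barely separated, at 2.41 in DD25::IaaH 3 and 2.40 in WT 3. YUC10 was already called, so these ratios are no separate support for its rise. YUC11 and YUC2 had few reads, so the added 0.5 largely sets the lower term of these ratios.

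**Figure D3:**
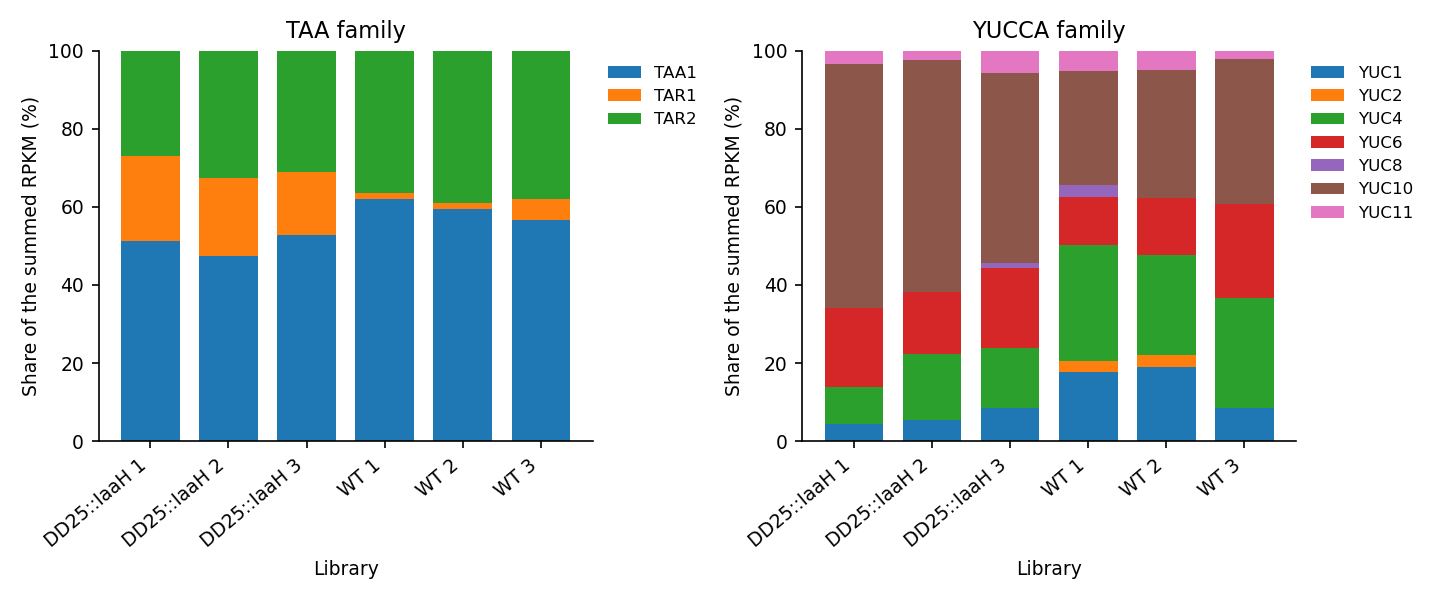
Share of each gene in the summed RPKM of the members of its family, per library. The TAA family is on the left and the YUCCA family on the right, with DD25::IaaH libraries left of WT libraries. Further family genes are not in these sums. TAR1 takes 16.2% to 21.9% of the TAA sum in DD25::IaaH and 1.48% to 5.31% in WT. YUC10 takes 48.8% to 62.7% of the YUCCA sum in DD25::IaaH and 29.3% to 37.2% in WT.

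YUC11, known like YUC10 from the endosperm, was low in both genotypes. It had 0.475, 0.262 and 0.654 RPKM in DD25::IaaH 1 to 3, against 0.574, 0.475 and 0.177 RPKM in WT 1 to 3, which rests on 2 to 12 reads a library. The ranges overlapped, and over the groups the ratio of reads was 1.09 with an exact 95% counting interval of 0.515 to 2.26, so at this depth a 2-fold rise could not be told from no change. YUC11 is the single member whose annotated locus overlaps another, AT1G21440 on the opposite strand, and the strand setting of the counting is not given in the sources used here.

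YUC2, active in flowers and leaves, had no read in any DD25::IaaH library, which at a floor of 3 reads over the group allows up to 0.0618 RPKM. In WT 1 to 3 it had 0.305, 0.303 and 0 RPKM, or 10, 5 and 0 reads. Over the groups, the exact 95% counting interval of the ratio of reads, DD25::IaaH over WT, reached up to 0.385, which does not cover the spread between libraries. WT 3 was at 0 as well, and the gene was below the filter. YUC8, best known for shade and warmth responses of the seedling, had 0, 0 and 2 reads in DD25::IaaH 1 to 3, against 10, 0 and 0 reads in WT 1 to 3. Its ratio of reads over the groups was 0.276, with a counting interval of 0.0294 to 1.29 that includes no change.

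WT 1 and WT 2 stood apart in a way that touches these low genes. Among 3911 loci annotated as pseudogenes, the share with any read was 21.3% to 32.9% in DD25::IaaH 1 to 3, against 82.1% in WT 1, 63.8% in WT 2 and 27.7% in WT 3. The median pseudogene was at 0 RPKM in each DD25::IaaH library, against 0.205, 0.0911 and 0 RPKM in WT 1 to 3. All 15 reads of YUC2 and 10 of the 12 reads of YUC8 came from WT 1 and WT 2. In WT 1, 33.2% of pseudogenes were at or above YUC2, 29.2% at or above YUC8 and 52.3% at or above TAR1. The part of this background in the WT levels of YUC2, YUC8 and TAR1 was not tested. TAR1 was also called without WT 1 and WT 2, with a log2 fold change of 1.73 and a limma adjusted p of 0.0472, while YUC10 then had 1.04 and 0.166. In that fit the single WT library is assumed to vary like the DD25::IaaH libraries.

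**Figure D4:**
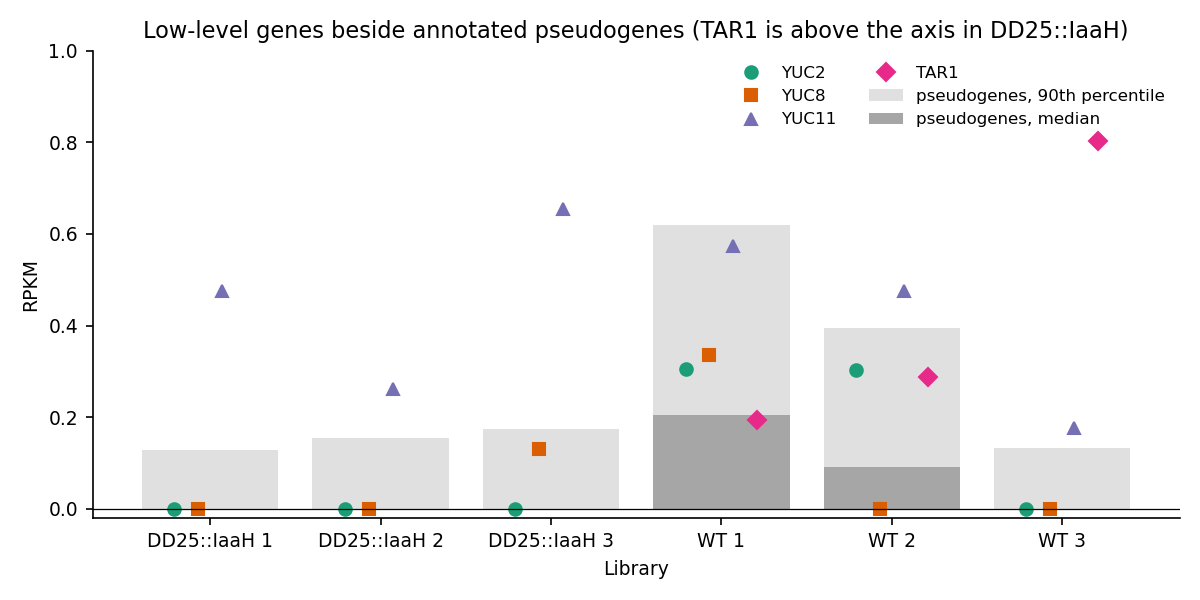
RPKM of YUC2, YUC8, YUC11 and TAR1 in each library beside the median and the 90th percentile of 3911 annotated pseudogenes; TAR1 is off the scale in DD25::IaaH, at 3.11 to 4.78 RPKM. Pseudogene levels are raised in WT 1 and WT 2, the same libraries in which YUC2 has its reads.

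RPKM allows levels to be compared between genes, but only as far as the gene length used for each holds. The inferred length was 1560 bases against 2163 annotated in YUC4 and 1701 against 2311 in TAR2. In TAR1 and YUC11 it equalled the annotated length. In DD25::IaaH the order of the means was TAA1 at 10.03, YUC10 at 6.98, TAR2 at 5.95, TAR1 at 3.86, YUC6 at 2.33, YUC4 at 1.64, YUC1 at 0.730, YUC11 at 0.463, YUC8 at 0.0438 and YUC2 at 0 RPKM. Neighbours with overlapping library ranges there were TAA1 and YUC10, YUC10 and TAR2, YUC6 and YUC4, YUC1 and YUC11, and YUC8 and YUC2. In WT the order was TAA1 at 9.11, TAR2 at 5.85, YUC10 at 3.18, YUC4 at 2.72, YUC6 at 1.59, YUC1 at 1.51, TAR1 at 0.428, YUC11 at 0.409, YUC2 at 0.203 and YUC8 at 0.112 RPKM. There TAA1 and TAR2, TAR2 and YUC10, and YUC4 and YUC6 had ranges that did not overlap, and all other neighbours did. TAR1 thus ranked 4 among the 10 genes in DD25::IaaH and 7 in WT.

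Relatives with near-identical sequence could share reads, so the coding sequences were compared. The coding sequences of TAA1 and TAR1 were 74.6% identical in RefSeq's TAIR10.1, and their longest identical run was 36 bases. The reads were 125 bases long. YUC10 and YUC11 were 60.1% identical, and over the 55 pairs of the 11 YUCCA genes identity ranged from 50.6% to 80.0%, with no identical run longer than 42 bases.

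None of the genes next to TAR1 and YUC10 on chromosome 1 passed the test. On either side of TAR1 the nearest 2 tested genes were RPL27AB, GGT1, AT1G23330 and AT1G23340, with log2 fold changes of 0.14, 0.43, 0.18 and -0.52. GGT1, a photorespiratory aminotransferase gene, came closest, with a limma adjusted p of 0.0587. Around YUC10 the nearest were TBL7, AT1G48900, NUC-L1 and GH9C1, with log2 fold changes of -0.13, 0.02, 0.21 and -0.58. Among the 50 tested genes on each side, 12 rose and 0 fell around TAR1, and 3 rose and 1 fell around YUC10. Over all tested genes 8.25% rose and 6.72% fell, and 12 also rose around YUC8, where 11 fell.

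TAR2, YUC1, YUC2 and YUC8 lie on chromosome 4, where 24 of 81 genes near-absent in DD25::IaaH were found. Such a gene had at least 3 RPKM in every WT library and less than the lowest WT value divided by 15 in every DD25::IaaH library, a rule set with these data in view. All 4 members lie between the first and the last of those genes, AT4G01593 and AT4G37320, a span so wide that it marks none of them out. Chromosomes 2, 3 and 5 held 19, 26 and 12 such genes, and no member lies on chromosome 2 or 3. Among the 50 tested genes on each side, 6 rose and 19 fell around YUC2, 8 rose and 8 fell around TAR2, 10 rose and 4 fell around YUC1, and 12 rose and 11 fell around YUC8, where all tested genes gave 8.25% higher and 6.72% lower. Chromosome 1, with TAA1, TAR1, YUC10 and YUC11, held 0 near-absent genes, and YUC4 and YUC6 on chromosome 5 lie outside the range found there. Whether the position of YUC2 bears on its reads was not tested.

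The rest of the YUCCA family was low. YUC3 was the single one of 4 further genes to pass the filter, at 0.986 ± 0.331 RPKM in DD25::IaaH and 1.46 ± 0.380 RPKM in WT (SD, n = 3 each), with a limma adjusted p of 0.430. YUC5, YUC7 and YUC9 did not exceed 0.1695 RPKM in DD25::IaaH or 0.604 RPKM in WT. YUC7 had its highest values, 0.521 and 0.604 RPKM, in WT 1 and WT 2.

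No gene of tryptophan synthesis, which supplies the substrate of TAA1, passed the test. Of 12 genes of tryptophan synthesis, all tested, 0 rose, 0 fell and 12 did not pass, with a median log2 fold change of 0.13. Over all tested genes 8.25% rose and 6.72% fell, so 0 of 12 does not set this list apart. AT4G02610, whose annotation names a tryptophan synthase alpha domain, had 23.2 ± 2.503 RPKM in DD25::IaaH and 18.2 ± 2.07 RPKM in WT (SD, n = 3 each), with a limma adjusted p of 0.147. TSB2, a tryptophan synthase beta subunit, had 24.2 ± 1.84 RPKM in DD25::IaaH and 19.7 ± 1.44 RPKM in WT (SD, n = 3 each), with an adjusted p of 0.168. VAS1, an aminotransferase that returns indole-pyruvate to tryptophan and so works against TAA1, had 71.6 ± 4.64 RPKM in DD25::IaaH and 67.6 ± 1.42 RPKM in WT (SD, n = 3 each), with an adjusted p of 0.679. The aminotransferase-like loci AT1G34040 and AT1G34060, listed with VAS1, had log2 fold changes of -0.14 and -0.65 and did not pass.

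Of 9 transcription factors known to act on TAA or YUCCA genes, 6 were tested, 1 fell, 0 rose and 5 did not pass. The rates over all tested genes were 8.25% higher and 6.72% lower, so 1 of 6 does not mark this list out. The median log2 fold change of the 6 was -0.27. FUS3, a B3 factor of seed maturation, fell to 22.2 ± 1.98 RPKM in DD25::IaaH, against 34.7 ± 5.11 RPKM in WT (SD, n = 3 each), a log2 fold change of -0.62 ± 0.15 (SE) with a limma adjusted p of 0.0211. STY1, an activator of YUC4, had 0.311 ± 0.0764 RPKM in DD25::IaaH and 0.769 ± 0.426 RPKM in WT (SD, n = 3 each), with an adjusted p of 0.328. LEC2, which is known to activate YUC2 and YUC4, had 12.3 ± 2.35 RPKM in DD25::IaaH and 10.08 ± 1.71 RPKM in WT (SD, n = 3 each), with an adjusted p of 0.386. SPL, PIF5 and PIF7 were below the filter.

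The genes most like TAR1 across the 6 libraries, by Pearson's r of log2(RPKM + 0.5) among 19317 other genes that averaged 1 RPKM or more, were ZIF1, a vacuolar transporter gene, and AT1G65990, with r of 0.998 and 0.997. For YUC10 they were AT3G05746, listed at 0 in all WT libraries, and CYP79C1, a cytochrome P450 gene, with r of 0.999 and 0.998. TAR1 and YUC10 had an r of 0.93 with each other. TAR1 and YUC4 ran in opposite directions, with r = -0.95. The 6 libraries fall into 2 groups, so a shared difference between the genotypes adds to r, and high values were common: 764 genes had an r above 0.95 with TAR1 and 284 with YUC10. For the other members the nearest 2 were ACHT1 and AT5G66675 for TAA1, GAPB and CRL2 for TAR2, AT1G15405 and AT2G24020 for YUC1, AT4G22250 and ENODL3 for YUC4, and AT5G67620 and SDH3-1 for YUC6, with r from 0.990 to 0.997.

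Markers of the seed's tissues were measured in the same libraries, in lists chosen with earlier results of these data known. Of 12 endosperm markers, 9 rose, 0 fell and 3 did not pass, against 8.25% higher and 6.72% lower over all tested genes. The median log2 fold change of these markers was 2.03. Their summed level was 219 to 328 RPKM in DD25::IaaH and 44.1 to 55.2 RPKM in WT, with means of 264 and 50.5 RPKM. Few genes carried these sums. AT4G36590 and PHE1 averaged 97.1 and 76.5 RPKM in DD25::IaaH, against 2.95 and 3.50 RPKM in WT, where ZOU averaged 33.5 RPKM. The log2 fold changes of the 9 were 4.78 for AT4G36590, 4.28 for PHE1, 3.82 for CKX2, 2.64 for AGL36, 2.06 for AGL62, 2.03 for both MINI3 and AGL28, 1.43 for FWA and 1.13 for FIS2, a range that spans the 2.27 of TAR1 and begins above the 1.00 of YUC10. MEA, IKU2 and ZOU did not pass, and ZOU, a regulator of endosperm breakdown, had 28.8 ± 4.64 RPKM in DD25::IaaH and 33.5 ± 4.24 RPKM in WT (SD, n = 3 each). The part of these endosperm genes in the higher TAR1 and YUC10 levels was not tested.

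Of 15 tested embryo markers, 1 fell, 0 rose and 14 did not pass, against 8.25% higher and 6.72% lower over all tested genes. The median was -0.22, with a sum of 143 to 160 RPKM in DD25::IaaH, against 170 to 179 RPKM in WT. WOX9, which encodes a homeodomain protein of embryo patterning, was the one that fell. TAA1, YUC1 and YUC4, named above for the embryo, had log2 fold changes of 0.14, -0.65 and -0.59, and none passed. Other members may act there as well, so this is no split of the members by tissue. Of 12 seed coat markers, 3 rose (BAN, TT2 and TT12), 1 fell (TT10) and 8 did not pass, beside the same rates over all tested genes. Their sum was 1822 to 1903 RPKM in DD25::IaaH and 1754 to 2065 RPKM in WT. Of 4 tested silique wall markers none passed, while IND and FUL were below the filter, and SHP1, SHP2 and RPL are also expressed in ovules or other organs. No marker in the 4 lists was at 0 in all libraries, but some were at 0 in single ones. Among endosperm markers MINI3 was at 0 in WT 2 and WT 3 and AGL36 in WT 1, and among embryo markers WOX2 was at 0 in DD25::IaaH 2 and DRN in DD25::IaaH 2 and all WT libraries. All seed coat markers had reads in every library.

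**Figure D5:**
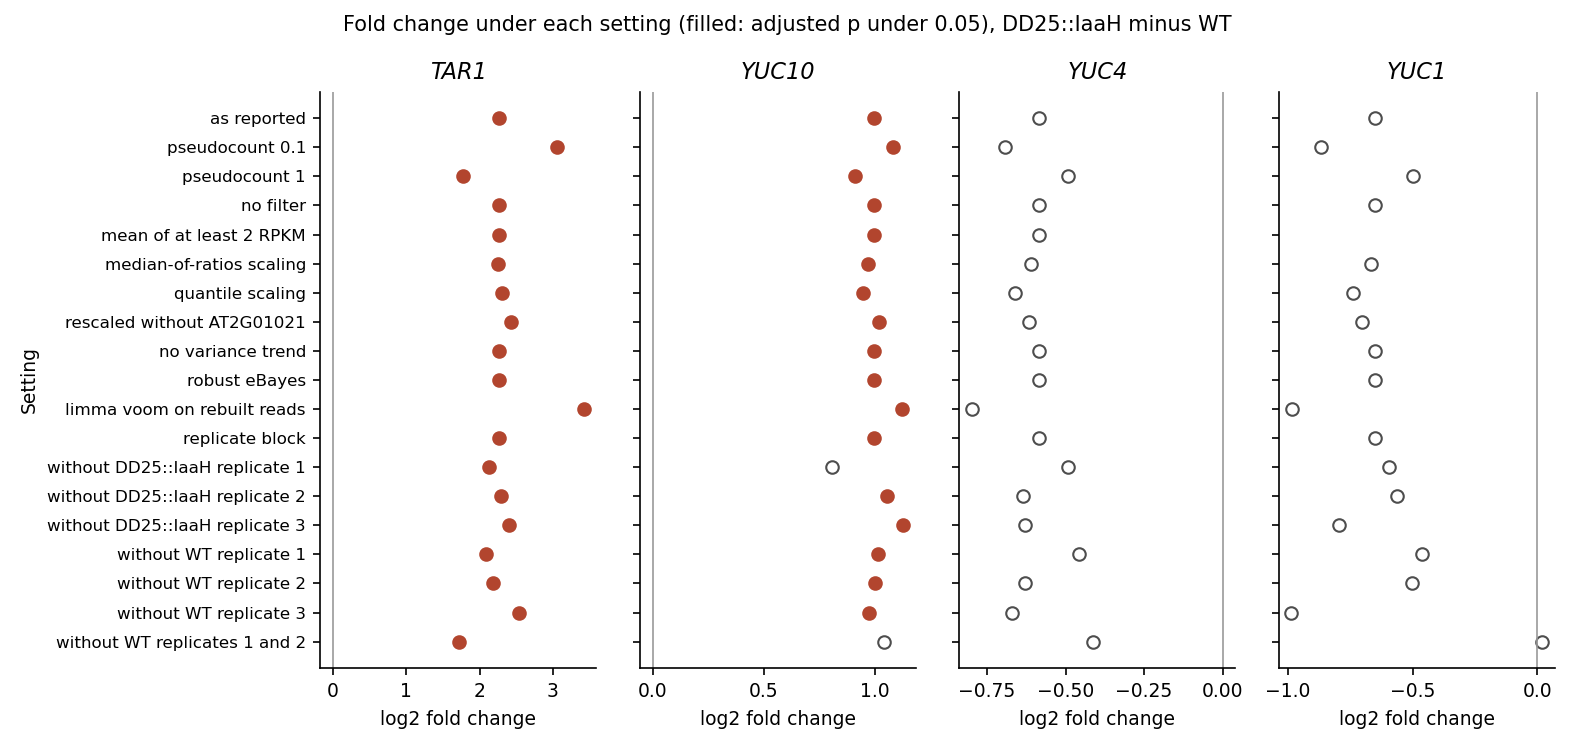
Log2 fold change of TAR1, YUC10, YUC4 and YUC1, DD25::IaaH minus WT, under the reported setting and each alternative; filled points have an adjusted p under 0.05. TAR1 stays between 1.73 and 3.42 and is filled throughout, YUC10 is open when DD25::IaaH 1 or the pair WT 1 and WT 2 is left out, YUC4 stays negative and open, and YUC1 reaches 0.019 without that WT pair.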

How the data were processed

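The authors deposited 1 table of RPKM values for 33323 loci in 6 libraries. TopHat2 2.1.0 and the build TAIR10 are named in the submitters' processing notes. Polyadenylated RNA was purified and DESeq used for differential expression, per the labels' protocols. How reads were counted, and with which strand setting, is not given in the sources used here. Labels gave each library its genotype and number, and the design text calls the 3 libraries per group biological replicates.

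RPKM values rose in steps of what 1 read is worth, which depends on the gene length used. That length was taken as the number of bases giving whole reads in every library, nearest the annotated exon length where several did. Such a length was found for all 31475 loci above 0, and in YUC4 it was 1560 bases against 2163 annotated. Read counts are thus inferred. From these steps, depths of 10750969, 6495018 and 9101909 reads for DD25::IaaH 1 to 3 and 17785020, 8948982 and 9608500 reads for WT 1 to 3 were computed, along with the reads behind each value, matched within 1e-05 of a read plus the same share of the count. Floors (3 reads) and intervals (95%, Clopper-Pearson) cover counting error only.

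Values were fitted as log2(RPKM + 0.5) with limma 3.58.1 in R 4.3.3 (eBayes with a mean-variance trend, two-sided). All genes averaging 0.5 RPKM or more were fitted. The same fit was also run on simulated counts with a set spread, and its outcome is not used here. Ratios of members were tested with exact permutation over libraries, and coding sequences were aligned with Biopython 1.88. Loci were matched by identifier to RefSeq's TAIR10.1, which gave names, biotypes, gene order and sequence; its coordinates are printed for the promoter windows alone, since the table holds none. Members and lists were chosen with earlier results of these data known, so no p-value is given for a list. The genes named are all members, listed genes that passed or came first by adjusted p, the 2 most correlated genes and the nearest 2 tested genes on each side of a called member. Alternatives changed the pseudocount (0.1 or 1), filter, scaling, variance model, test, replicate block and libraries.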

Additional observations from a re-analysis of the deposited data

How the results depend on the processing

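TAR1 passed in all 18 alternatives tried, with log2 fold changes of 1.73 to 3.42 and adjusted p of 0.000621 to 0.0472. YUC10 passed in 16 of 18 but not when DD25::IaaH 1 was left out (0.81, adjusted p 0.0543) or the pair WT 1 and WT 2 was (1.04, adjusted p 0.166); members called higher were then 1 in place of 2. Members called lower stayed at 0. YUC4 passed in none, with adjusted p of 0.0708 to 0.594, nor did TAA1, TAR2, YUC1 or YUC6, of which YUC1 and YUC6 could not be fitted at a filter of 2 RPKM. TAR2 ranged from -0.089, a reversal without WT 1, to 0.17 when 1 library was left out, and YUC1 reversed to 0.019 without WT 1 and WT 2; the cause was not tested. All genes called numbered 3127, with 1912 to 4133 when 1 library was left out and 1063 without WT 1 and WT 2. The 4 ratios kept their direction in all 13 alternatives each. For YUC10 to YUC11 the adjusted permutation p was 0.2 with a pseudocount of 0.1 and also with rescaling without AT2G01021. Same-numbered libraries had correlations of deviations from -0.10 to -0.03, against -0.04 to 0.12 for other pairs. No pairing by number showed, though a shared harvest or batch could be missed this way. With the replicate number as a block 2429 genes were called, and TAR1 and YUC10 had limma adjusted p of 0.00671 and 0.0264. With few reads, YUC2, YUC8 and YUC11 allow no statement on small changes.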
